A study of Mus musculus with 17 samples.

Results

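Expression was described for 8 genes of the interleukin-1 (IL-1) family in sorted mouse eosinophils. They are the ligands Il1a, Il1b and Il18, the receptor antagonist Il1rn, the receptors Il1r1, Il1r2 and Il1rl1, and the shared receptor subunit Il1rap. The genes were chosen by symbol in the platform annotation, not by their values. Of the 8 genes, 7 had a probe set that carried their symbol alone, among 22180 genes measured in all. No probe set carried the symbol of Il1rl1, the receptor for interleukin-33, alone, so Il1rl1 was not analysed here. Probe sets with several symbols were left out.

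The series holds 17 one-colour arrays in 6 groups, and its title asks how the inhibitory receptor PIR-B, encoded by Pirb, bears on eosinophils under interleukin-13 (IL-13). The groups were esophagus Pirb knockout with Dox (3 arrays), esophagus wildtype with Dox (3), marrow knockout with Dox (3), marrow wildtype with Dox (3), marrow knockout without Dox (3) and marrow wildtype without Dox (2). Knockouts were CC10-IL13Tg/Pirb-/- and wildtypes were CC10-IL13Tg/Pirb+/+ littermates, so every group, controls included, carried the IL-13 transgene. Doxycycline (Dox) in the food switched the transgene on over 2 weeks, and CC10 is the promoter of an airway club cell gene. The mice were young adults of both sexes, with the sex of each sample not given in the labels. Flow sorting took cells with CD45, Siglec-F and CCR3 on their surface, after collagenase digestion of the esophagus or after passing marrow through a needle. Tissue and digestion therefore cannot be told apart. No label says whether a replicate is 1 animal or a pool, so each p-value covers the spread of these samples and perhaps no more.

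IL-1α and IL-1β, the products of Il1a and Il1b, bind the receptor IL-1R1, which recruits the subunit encoded by Il1rap and signals through MyD88 and IRAK kinases to NF-κB. The antagonist encoded by Il1rn occupies IL-1R1 without signalling, and IL-1R2, encoded by Il1r2, is a decoy that binds IL-1 but lacks a signalling domain. IL-18 acts on its own receptor pair, and both IL-1β and IL-18 are cut to their active forms by caspase-1 in the inflammasome. Eosinophils accumulate in the esophagus in eosinophilic esophagitis, a disease in which IL-13 acts on the epithelium.

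All values below are log2 distances of an array from the median array for that gene, because the deposited values had been centred per probe set. A value of 0 is thus the median over arrays and not a lack of signal, and levels cannot be compared between genes. Differences are limma estimates with standard errors (SE), group means carry SDs over arrays, and adjusted p-values are Benjamini-Hochberg values over 22180 genes with a threshold of 0.05. One array, replicate 3 of the untreated knockout marrow, differed from the rest. Its SD over probe sets was 0.811, against 0.250 to 0.296 for other arrays of marrow, and the esophageal arrays had 0.504 to 0.592. It enters no esophageal difference but does enter the spread estimated for every test, so calls of the pathway and marker lists are given with and without it where it moves them. The Pirb probe set did not separate the genotypes, with means of 1.00 ± 0.21 in knockout and 1.28 ± 0.77 in wildtype esophagus (SD, n = 3 each) and an adjusted p of 0.707. Whether that probe set lies in the deleted part is not known, so it checks nothing about the genotype labels.

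With Dox, 4 of the 7 measured family genes were higher in esophageal than in marrow eosinophils and 1 was lower, in knockout and in wildtype alike. Il1a, Il1b, Il1rn and Il1r2 rose and Il18 fell, while Il1r1 and Il1rap did not pass the test. Over all genes, 4.50% were called higher and 6.04% lower in knockout, and 8.11% were called higher and 7.06% lower in wildtype. Higher calls made up 53.4% of the wildtype calls, against 34.9% after quantile normalization between arrays and 39.5% with each array centred on its median, and 70.5% with array weights. The share was 68.8% without the array that stood apart. That fit called 9.75% of all genes higher and 9.07% lower in knockout, and 25.1% higher and 11.4% lower in wildtype. The same 5 family genes passed under each of these settings. In these sorted bulk samples, fewer cells of a type and less RNA per cell cannot be told apart. Whether a marrow value lay above background cannot be read from centred values, so the folds below are between measured values only.

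**Figure D1:**
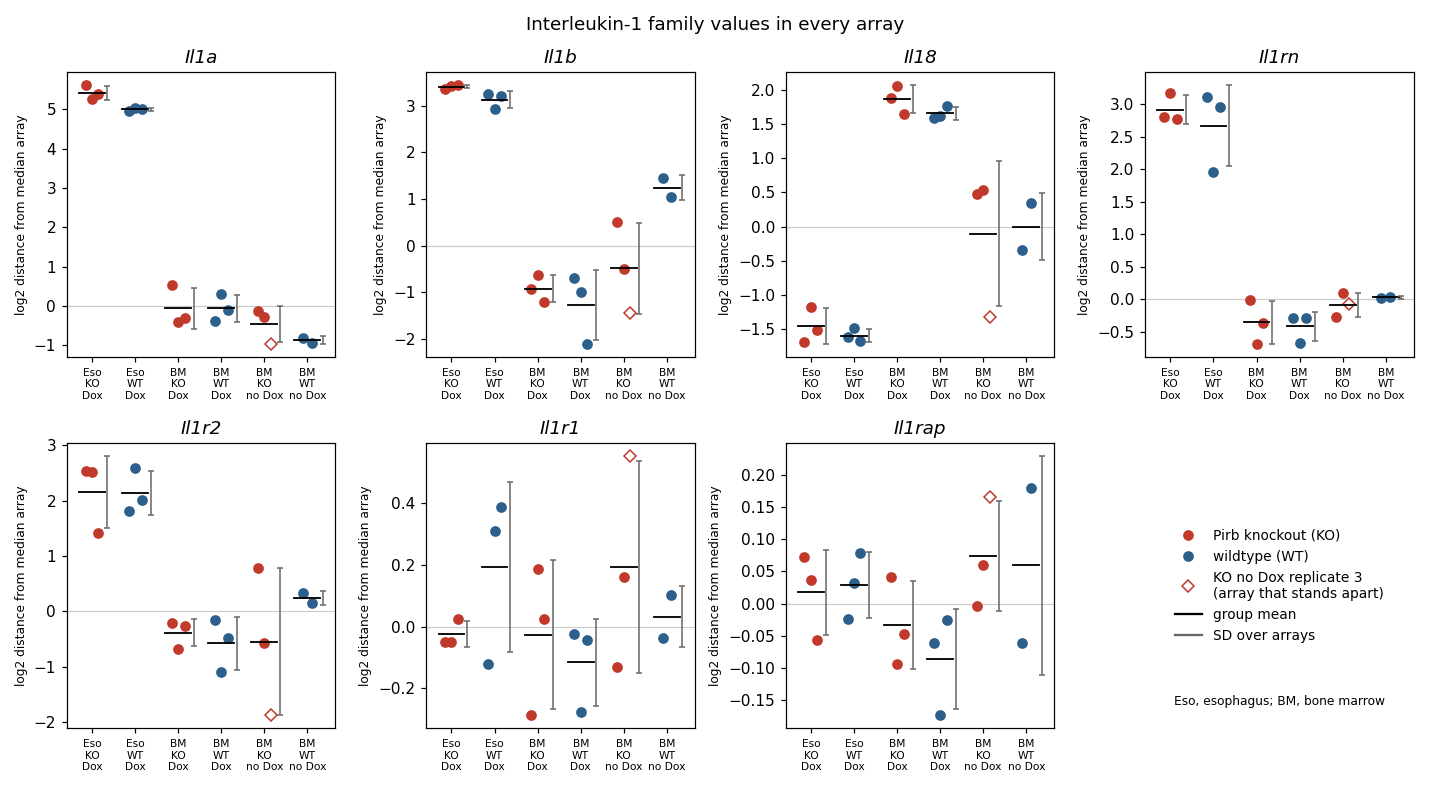
Log2 distance from the median array (vertical axis, a different range in each panel) for the 7 measured genes in the 6 groups, with one point per array, the group mean as a line and the SD as a bar. Il1a, Il1b, Il1rn and Il1r2 sit high in the esophagus, Il18 sits high in marrow with Dox, and Il1r1 and Il1rap stay within a log2 unit of 0 in every array.

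Il1a encodes IL-1α, a ligand that is active without cleavage and is released by damaged cells as an alarm signal. In esophageal eosinophils its values were 5.63, 5.27 and 5.38 in knockout and 4.96, 5.03 and 5.02 in wildtype. Marrow values with Dox were 0.53, -0.41 and -0.30 in knockout and -0.37, 0.31 and -0.11 in wildtype. Every esophageal array lay more than 4 log2 units above every marrow array. The esophagus minus marrow difference was 5.49 ± 0.26 in knockout (44.9-fold, adjusted p = 4.10e-08) and 5.06 ± 0.26 in wildtype (33.4-fold, adjusted p = 8.46e-08). By size of increase Il1a ranked 5 of 22180 genes in each genotype.

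Il1b encodes IL-1β, which is made as a precursor and cut by caspase-1. Its esophageal values were 3.37, 3.41 and 3.45 in knockout and 3.25, 2.93 and 3.22 in wildtype. In marrow with Dox they were -0.93, -0.62 and -1.21 in knockout and -0.69, -1.0 and -2.11 in wildtype. The tissues did not overlap, and the marrow values of wildtype were spread more widely than those of the esophagus. The difference was 4.33 ± 0.42 in knockout (20.2-fold, adjusted p = 2.55e-05) and 4.40 ± 0.42 in wildtype (21.1-fold, adjusted p = 3.35e-05). Il1b ranked 13 from the highest increase in knockout and 10 in wildtype.

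Il18 encodes IL-18, the ligand of the family that ran the other way. Its esophageal values were -1.68, -1.17 and -1.52 in knockout and -1.62, -1.49 and -1.68 in wildtype. The 6 marrow arrays with Dox had 1.89, 2.07 and 1.65 in knockout and 1.59, 1.62 and 1.76 in wildtype. The 6 esophageal arrays were all below the 6 marrow arrays. The difference was -3.33 ± 0.38 in knockout (10.03-fold lower, adjusted p = 0.000101) and -3.25 ± 0.38 in wildtype (9.52-fold lower, adjusted p = 0.000179). Il18 ranked 51 from the largest decrease in knockout and 56 in wildtype.

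Il1rn encodes the IL-1 receptor antagonist. Its esophageal values were 2.81, 3.17 and 2.77 in knockout and 3.11, 1.95 and 2.95 in wildtype. Marrow eosinophils with Dox had -0.01, -0.68 and -0.37 in knockout and -0.29, -0.67 and -0.29 in wildtype. The inhibitor was thus high in the same 6 arrays as both IL-1 ligands, with replicate 2 of wildtype the lowest among them. The difference was 3.27 ± 0.26 in knockout (9.65-fold, adjusted p = 5.34e-06) and 3.09 ± 0.26 in wildtype (8.52-fold, adjusted p = 1.21e-05).

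Il1r2 encodes the decoy receptor. Its esophageal values were 2.54, 2.52 and 1.41 in knockout and 1.81, 2.58 and 2.01 in wildtype. The marrow arrays with Dox had -0.21, -0.67 and -0.27 in knockout and -0.16, -1.09 and -0.49 in wildtype. The tissues did not overlap, although the esophageal spread was wide in knockout, with an SD of 0.65. The difference was 2.54 ± 0.52 in knockout (5.82-fold, adjusted p = 0.00654) and 2.71 ± 0.52 in wildtype (6.56-fold, adjusted p = 0.00548).

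Il1r1 encodes the receptor that signals for both IL-1 ligands. Its esophageal values were -0.05, -0.05 and 0.02 in knockout and -0.12, 0.31 and 0.39 in wildtype. Those of marrow with Dox were -0.29, 0.19 and 0.02 in knockout and -0.02, -0.28 and -0.04 in wildtype. The tissues overlapped in both genotypes. The wildtype difference was 0.31 ± 0.18 with a 95% interval of -0.07 to 0.69 (adjusted p = 0.212), and the knockout interval ran from -0.38 to 0.38 (adjusted p = 0.9995).

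Il1rap, the subunit shared by the IL-1 and IL-33 receptors, was read by 3 probe sets, whose mean was used. In knockout and wildtype esophagus these probe sets had group means of 0.16 and -0.11, -0.15 and 0.22, and 0.03 and -0.02. They thus differed in direction between the genotypes, and their mean hides this. The arrays of that mean lay between -0.17 and 0.17 in all groups but wildtype marrow without Dox, where they were -0.06 and 0.18. The esophagus minus marrow difference was 0.05 ± 0.08 in knockout (95% interval -0.12 to 0.23) and 0.12 ± 0.08 in wildtype (-0.06 to 0.29), with adjusted p-values of 0.769 and 0.300. In wildtype the arrays of the tissues did not overlap. Arrays of the tissues lay wholly apart for 44.0% of all genes in knockout and 46.1% in wildtype.

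**Figure D2:**
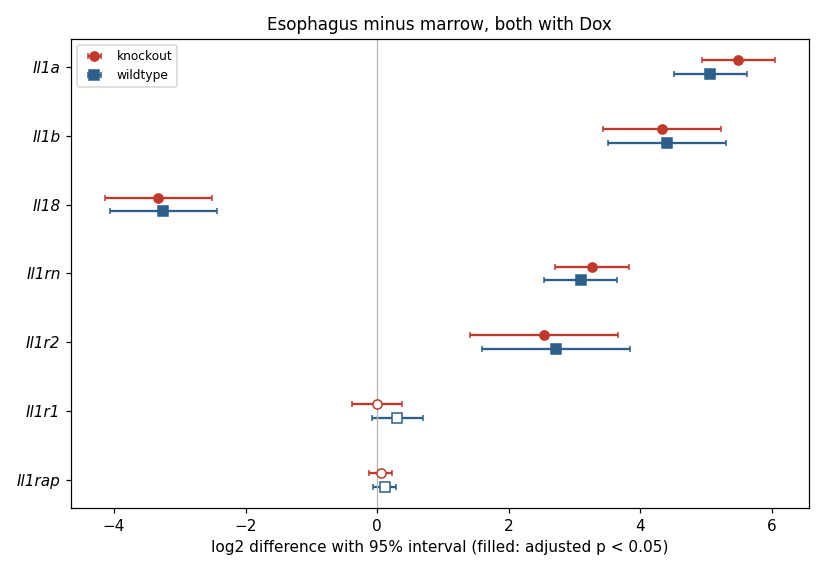
Esophagus minus marrow log2 difference with Dox (horizontal axis) for each gene, with 95% intervals, knockout above wildtype. Filled symbols passed the test, and the knockout and wildtype intervals of every gene overlap.

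Order of the group means separated the members in the same way. For Il1a and Il1b, the esophagus of knockout and then of wildtype came first, and neither overlapped the next group. For Il1rn and Il1r2, knockout and wildtype esophagus overlapped each other and lay above every marrow group. For Il18 the order began with marrow with Dox, knockout and wildtype overlapping, and ended with the esophagus, where the knockout group overlapped knockout marrow without Dox. Without replicate 3 of that group, its Il18 mean was 0.51 ± 0.03 (SD, n = 2) in place of -0.10 ± 1.06 (SD, n = 3), and it no longer reached the esophageal values. For Il1r1 and Il1rap each group overlapped the next in order.

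The promoters of 4 genes that passed the test are shown, as members whose values moved together or in the opposite direction. Each is the 250 bases before the annotated start in RefSeq (GRCm38.p6), read 5′ to 3′ on the gene's strand, with capitals marking matches to the motifs named below.
Il1a: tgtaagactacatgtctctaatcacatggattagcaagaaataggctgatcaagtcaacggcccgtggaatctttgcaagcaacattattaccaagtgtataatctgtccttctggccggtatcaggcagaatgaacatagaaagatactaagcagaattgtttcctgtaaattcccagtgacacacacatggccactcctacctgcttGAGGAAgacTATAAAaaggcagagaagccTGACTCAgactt
Il1b: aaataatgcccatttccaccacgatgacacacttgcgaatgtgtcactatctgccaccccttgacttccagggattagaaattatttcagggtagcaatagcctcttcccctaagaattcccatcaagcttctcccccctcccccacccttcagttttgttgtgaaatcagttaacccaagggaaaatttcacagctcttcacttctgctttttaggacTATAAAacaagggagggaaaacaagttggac
Il1rn: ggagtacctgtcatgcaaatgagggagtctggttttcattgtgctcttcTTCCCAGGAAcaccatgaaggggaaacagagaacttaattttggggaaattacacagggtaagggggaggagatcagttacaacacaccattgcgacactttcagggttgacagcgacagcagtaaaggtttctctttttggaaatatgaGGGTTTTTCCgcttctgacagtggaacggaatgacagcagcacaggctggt
Il18: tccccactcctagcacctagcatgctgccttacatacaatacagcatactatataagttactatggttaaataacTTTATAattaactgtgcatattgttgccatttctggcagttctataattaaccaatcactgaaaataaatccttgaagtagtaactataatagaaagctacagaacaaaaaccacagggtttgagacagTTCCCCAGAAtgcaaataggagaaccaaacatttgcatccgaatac
They lie at chr2:129309973-129310222 on the minus strand for Il1a, chr2:129371140-129371389 on the minus strand for Il1b, chr2:24345121-24345370 on the plus strand for Il1rn and chr9:50554450-50554699 on the plus strand for Il18. All 8 genes matched the RefSeq table, with 12 windows, and Il1rn is shown at the last of its 3 starts. The first of them held AP-1 at -141 and no other match, and the second, which overlaps the window shown, held the STAT6 form at -121 alone, so the NF-κB form was found at the last start only.

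The motifs were searched on both strands with no mismatch. Il1a held AP-1 (TGANTCA) 12 bases before the start, the PU.1 core GAGGAA at -41 and TATAAA at -32. Il1b held TATAAA at -31 and no other match. Il1rn held GGGNNTTNCC, an NF-κB form, at -51 and TTCNNNNGAA, a STAT6 form, at -201. Il18 held the STAT6 form at -46 and TATAAA, read on the other strand, at -175. Of 32851 promoter windows of this length, 4.11% held the NF-κB form, 6.75% AP-1, 5.85% the STAT6 form, 23.3% the PU.1 core, 9.56% the C/EBP form TTGCNNAA and 12.4% TATAAA. No 2 matches shown overlap. The Il1r2 window and the Il1rap window held none of the 6 motifs. A match is a string of letters here and not a measured binding site.

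Il1a and Il1b are neighbours on chromosome 2, and both rose. On chromosome 1, Il1r2, Il1r1, Il1rl2, Il1rl1 and Il18r1 follow one another, per the same RefSeq annotation. In that row Il1r2 rose, whereas Il1r1 had the values given above. Il1rl2, the receptor for IL-36, differed by -0.95 ± 0.34 in knockout (adjusted p = 0.0970) and -0.59 ± 0.34 in wildtype (adjusted p = 0.211). Il18r1, a subunit of the IL-18 receptor, differed by -0.04 ± 0.11 in knockout and 0.03 ± 0.11 in wildtype.

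The other genes of the pathway were taken from lists chosen with earlier results of these data known. Among 7 other receptors and binding proteins, none passed the esophagus minus marrow test in either genotype with all arrays. In wildtype 1 passed without the array that stood apart, Il1rapl1, at 0.22 ± 0.08 (adjusted p = 0.0414). Of the other ligands, Il33 and Il1f10 were measured, and neither passed with all arrays. Without that array both rose in wildtype, Il33 by 0.32 ± 0.10 (adjusted p = 0.0277) and Il1f10 by 0.36 ± 0.10 (adjusted p = 0.0161). Neither passed in knockout, with adjusted p-values of 0.411 and 0.475. That fit called 25.1% of all genes higher and 11.4% lower in wildtype, where the median difference over all genes was 0.14. Among 12 inflammasome and processing genes, 1 fell in knockout and none passed in wildtype with all arrays. That gene was Nlrc4, an inflammasome sensor of bacterial proteins, at -0.64 ± 0.12 (adjusted p = 0.00373), against -0.35 ± 0.12 in wildtype (adjusted p = 0.0615). Casp1, which cuts pro-IL-1β and pro-IL-18, had differences of -0.62 ± 0.77 in knockout and -1.53 ± 0.77 in wildtype, with adjusted p-values of 0.695 and 0.167. The knockout count stayed at 1 without the array that stood apart, while 5 passed in wildtype. Casp1 (adjusted p = 0.0441), Casp8 and Nlrc4 fell there, and the inflammasome sensors Nlrp1a and Nlrp3 rose, by 0.28 ± 0.09 and 0.44 ± 0.15.

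Of 15 receptor signalling genes, 2 rose in knockout and 1 in wildtype, and none fell, with all arrays. Once the array that stood apart was left out, 3 rose in knockout, and 2 rose and 1 fell in wildtype. The added genes were Mapkapk2, a kinase downstream of p38, at 1.31 ± 0.24 in knockout (adjusted p = 0.00227) and 1.15 ± 0.24 in wildtype (adjusted p = 0.00400), and Mapk14, which encodes p38α, at -1.24 ± 0.45 in wildtype (adjusted p = 0.0466). Irak2, a kinase of the MyD88 complex, rose by 0.97 ± 0.24 in knockout (adjusted p = 0.0217) and 0.79 ± 0.24 in wildtype (adjusted p = 0.0461). Tab2, an adaptor of the kinase TAK1, rose by 0.78 ± 0.22 in knockout (adjusted p = 0.0351), against -0.07 ± 0.22 in wildtype (adjusted p = 0.819). The genotype by tissue interaction called neither Irak2 nor Tab2 in either fit, with adjusted p-values without that array of 0.872 and 0.414. The list's median difference was 0.59 in knockout and -0.04 in wildtype, beside 0.06 and 0.14 over all genes.

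Genes that IL-1 is known to induce through NF-κB made up the list with the most calls among those of the pathway. All 18 were measured, and 15 rose in knockout and 13 in wildtype, with none falling. Their median difference was 2.04 in knockout and 1.68 in wildtype. The list is also induced by other stimuli of NF-κB. Ptgs2, the inducible enzyme of prostaglandin synthesis, rose by 5.98 ± 0.29 in knockout and 5.94 ± 0.29 in wildtype. Its arrays ran from 5.18 to 5.30 in knockout and 4.69 to 5.48 in wildtype esophagus, against -0.85 to -0.50 in knockout and -0.85 to -0.67 in wildtype marrow with Dox. Cxcl2, a neutrophil chemokine, rose by 5.05 ± 0.26 in knockout and 4.44 ± 0.26 in wildtype. The feedback inhibitors Tnfaip3 and Nfkbia rose by 4.07 ± 0.22 and 2.15 ± 0.12 in knockout and by 4.01 ± 0.22 and 1.92 ± 0.12 in wildtype. Without the array that stood apart, 15 of the 18 genes passed in each genotype.

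**Figure D3:**
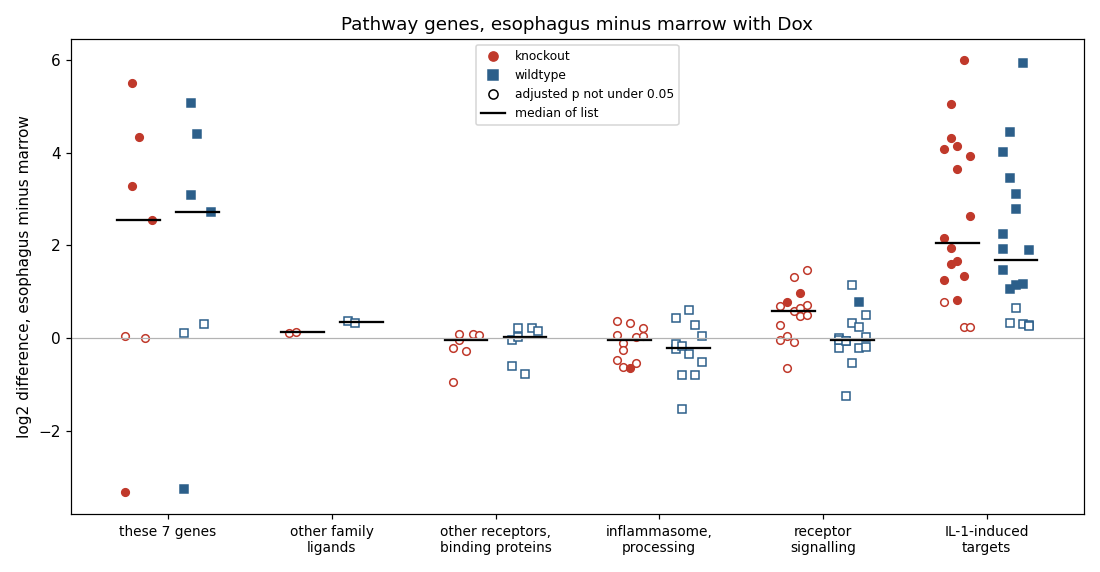
Esophagus minus marrow log2 difference (vertical axis) of the family genes and the 5 pathway lists, knockout left of wildtype, one point per gene, filled where the gene passed the test with all arrays, with the list median as a line. The IL-1-induced targets sit above 0 in both genotypes, while the receptor, ligand and processing lists have medians within 0.35 of 0.

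Eosinophil genes were checked beside these results. In the esophagus the granule protein genes Epx, Prg2 and Prg3 fell, by -3.50 ± 0.41, -2.19 ± 0.35 and -4.91 ± 0.52 in knockout and by -3.50 ± 0.41, -3.53 ± 0.35 and -5.22 ± 0.52 in wildtype. Alox15, an eosinophil lipoxygenase, rose by 3.36 ± 0.59 in knockout and 2.95 ± 0.59 in wildtype. Il5ra had means of 2.51 in knockout and 0.91 in wildtype esophagus, against 0.07 and -0.13 in marrow with Dox. Of the 7 eosinophil genes, 3 were called higher in knockout and 1 in wildtype, and 3 lower in each. Siglecf, which was part of the sort, rose by 1.14 ± 0.16 in knockout, against 0.32 ± 0.16 in wildtype (adjusted p = 0.165). Ccr3, also part of the sort, differed by 1.02 ± 0.56 in knockout and 0.64 ± 0.56 in wildtype and did not pass.

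Markers of other cells also moved with tissue. Of 12 neutrophil markers, 9 fell and 1 rose in knockout, and 8 fell and 1 rose in wildtype, where 10 fell without the array that stood apart. The gene that rose was Retnlg, by 2.75 ± 0.50 in knockout and 1.98 ± 0.50 in wildtype. The mean of the neutrophil list ran from -2.55 to -2.39 over knockout and -3.34 to -2.50 over wildtype esophageal arrays, against -0.05 to 0.36 and 0.00 to 0.40 in marrow with Dox. Of 10 macrophage and monocyte markers, 7 fell in knockout and 2 in wildtype, or 8 and 4 without that array, with list means of -1.03 to -0.76 in knockout and -0.74 to -0.32 in wildtype esophagus, against 0.28 to 0.75 and 0.52 to 0.61 in marrow. In the same comparison Il18 fell, and Il1a, Il1b, Il1rn and Il1r2 rose. Of 9 mast cell and basophil markers, 4 fell in each genotype, while none of 6 lymphoid markers passed, with all arrays. Left without that array, the mast cell and basophil list again had 4 that fell in each genotype. In wildtype 3 rose, the mast cell protease genes Cma1, Mcpt4 and Tpsab1. That fit called 25.1% of all genes higher in wildtype and 9.75% in knockout, and 3 of 9 is not far from the wildtype share. Lymphoid markers then rose in 1 case in knockout, Gata3, and in 2 in wildtype, Gata3 and Rora. Stromal and epithelial markers had calls as well. In knockout, 1 of 8 epithelial, 2 of 6 fibroblast and 1 of 5 endothelial markers rose, and in wildtype 1 fibroblast marker rose and 1 epithelial marker fell. Without that array, 1 epithelial, 3 fibroblast and 1 endothelial markers rose in knockout, and 2 epithelial, 4 fibroblast and 1 endothelial markers rose and 1 epithelial marker fell in wildtype. Beside the 25.1% of all genes called higher in wildtype there, 2 of 8 epithelial, 1 of 5 endothelial and 2 of 6 lymphoid markers are also not far from that share. The median differences of the fibroblast list were 0.51 in knockout and 0.48 in wildtype. Which markers are absent cannot be read from centred values. Their part in the family's differences was not tested.

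In marrow, food with Dox was set against food without it. With all arrays, no family gene passed in either genotype, beside 0.0225% of all genes in knockout and 0.0225% in wildtype. Il18 and Il1b had the largest differences of the family in wildtype, and Il18 had the largest in knockout. Both Il18 and Il1b passed in wildtype once the array that stood apart, a knockout array, was left out.

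Il18 in marrow was 1.89, 2.07 and 1.65 with Dox and 0.48, 0.53 and -1.32 without it in knockout, the last being the array that stood apart. In wildtype it was 1.59, 1.62 and 1.76 with Dox and -0.35 and 0.35 without it. Arrays with and without Dox lay wholly apart in both genotypes, as they did for 36.5% of all genes in knockout and 25.3% in wildtype. The Dox minus no Dox difference was 1.97 ± 0.38 in knockout (adjusted p = 0.109) and 1.66 ± 0.42 in wildtype (adjusted p = 0.433). Without the array that stood apart it was 1.36 ± 0.19 in knockout (adjusted p = 0.0863) and 1.66 ± 0.19 in wildtype (adjusted p = 0.0102). That fit called 0.00451% of all genes in knockout and 0.149% in wildtype.

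Il1b in knockout marrow was -0.93, -0.62 and -1.21 with Dox and 0.50, -0.50 and -1.45 without it, with overlap. In wildtype marrow it was -0.69, -1.0 and -2.11 with Dox and 1.44 and 1.05 without it, with no overlap. The knockout difference was -0.44 ± 0.42 (adjusted p = 0.441). The wildtype difference was -2.52 ± 0.46 (adjusted p = 0.128), the largest decrease of 22180 genes there. Without the array that stood apart the knockout difference was -0.92 ± 0.37 (adjusted p = 0.457) and the wildtype difference -2.52 ± 0.37 (adjusted p = 0.0240). The marrow and esophageal differences of Il1b with Dox share the marrow arrays with Dox.

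**Figure D4:**
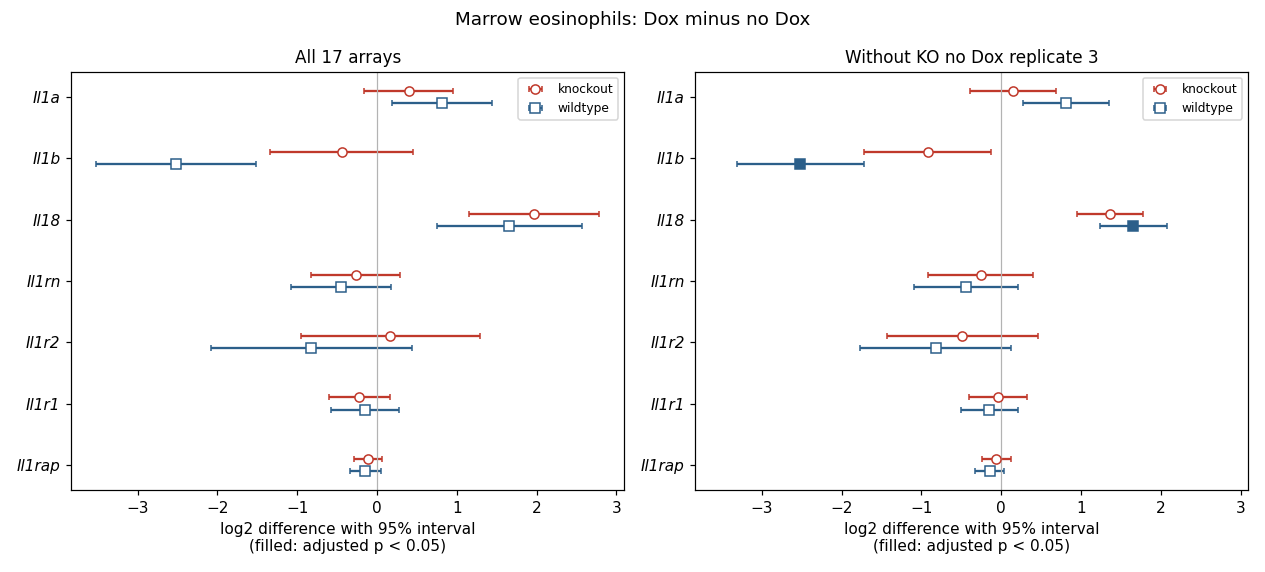
Dox minus no Dox log2 difference in marrow (horizontal axis) with 95% intervals, for all 17 arrays on the left and without replicate 3 of knockout marrow without Dox on the right, knockout above wildtype. Filled symbols, which passed the test, are Il1b and Il18 of wildtype in the right panel.

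The remaining members moved less with Dox in marrow. In knockout Il1a differed by 0.40 ± 0.26 (adjusted p = 0.279), and the arrays overlapped. In wildtype it was -0.37, 0.31 and -0.11 with Dox and -0.81 and -0.94 without it, without overlap, a difference of 0.82 ± 0.29 (adjusted p = 0.879). Il1r2 differed by 0.17 ± 0.52 in knockout and -0.82 ± 0.58 in wildtype, and Il1rn by -0.27 ± 0.26 and -0.45 ± 0.29. In wildtype the arrays of both genes lay apart, with neither passing. Il1r1 differed by -0.22 ± 0.18 in knockout and -0.15 ± 0.20 in wildtype, and Il1rap by -0.11 ± 0.08 and -0.15 ± 0.09.

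Macrophage and eosinophil markers moved with Dox beside Il18. All 10 macrophage markers had higher means with Dox in each genotype, none of them passing, with a median difference of 0.92 in knockout and 0.98 in wildtype, beside -0.13 and -0.01 over all genes. Without the array that stood apart, the knockout median was 0.35 and 8 of the 10 were higher. The list mean ran from 0.28 to 0.75 with Dox against -1.05 to 0.22 without it in knockout, and from 0.52 to 0.61 against -0.38 to -0.28 in wildtype. Of 12 neutrophil markers, 11 had lower means with Dox in wildtype, with a median of -0.15, as did Il1b. In knockout 4 were lower, with a median of 0.25, and without the array that stood apart 9 were lower, with a median of -0.11. The part of these markers in the Il18 and Il1b differences was not tested. Among the 18 IL-1-induced targets, none passed with Dox in either genotype, and their medians were -0.17 in knockout and -0.04 in wildtype.

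Knockout was set against wildtype in each of the 3 settings, the comparison the series title asks about. No family gene passed in esophagus, in marrow with Dox or in marrow without Dox, where 0.347%, 0% and 0% of all genes passed. At an unadjusted p under 0.05 the same fit had 3251, 407 and 1809 of the 22180 genes. Without the array that stood apart, 3.44% of all genes passed in the esophagus, with no family gene among them.

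In the esophagus, Il1a was higher in all 3 knockout than in all 3 wildtype arrays, with a difference of 0.42 ± 0.26 (95% interval -0.13 to 0.98, adjusted p = 0.430). Il1b was likewise higher in every knockout array, by 0.28 ± 0.42 (-0.62 to 1.17, adjusted p = 0.730). Arrays of the genotypes lay wholly apart for 23.3% of all genes there, so 2 of 7 is close to that share. Il1rn differed by 0.24 ± 0.26 (-0.32 to 0.80), Il18 by 0.14 ± 0.38 (-0.68 to 0.95), Il1r2 by 0.02 ± 0.52 (-1.10 to 1.15), Il1r1 by -0.22 ± 0.18 (-0.60 to 0.16) and Il1rap by -0.01 ± 0.08 (-0.19 to 0.16). These intervals still hold differences above 2-fold for Il1b and Il1r2, which the arrays could not show. The Il1rap difference averages 3 probe sets that differed in direction.

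In marrow with Dox, the differences of the 7 genes lay between -0.0028 for Il1a and 0.35 for Il1b, and all of their arrays overlapped between the genotypes. In marrow without Dox, Il1b was 0.50, -0.50 and -1.45 in knockout and 1.44 and 1.05 in wildtype, a difference of -1.73 ± 0.46 (unadjusted p = 0.00252, adjusted p = 0.546). Without the array that stood apart it was -1.25 ± 0.40 (adjusted p = 0.9998). With all arrays, Il1b was the only one of the 7 whose arrays lay apart there, beside 23.3% of all genes. Il1r2 differed by -0.79 ± 0.58 and Il1a by 0.41 ± 0.29 in the same setting. Once the array that stood apart was left out, the arrays of Il1a and Il18 did not overlap either. Their differences were then 0.67 ± 0.27 and 0.51 ± 0.21 (adjusted p = 0.9998 for each). The share of all genes lying apart was not counted without that array.

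**Figure D5:**
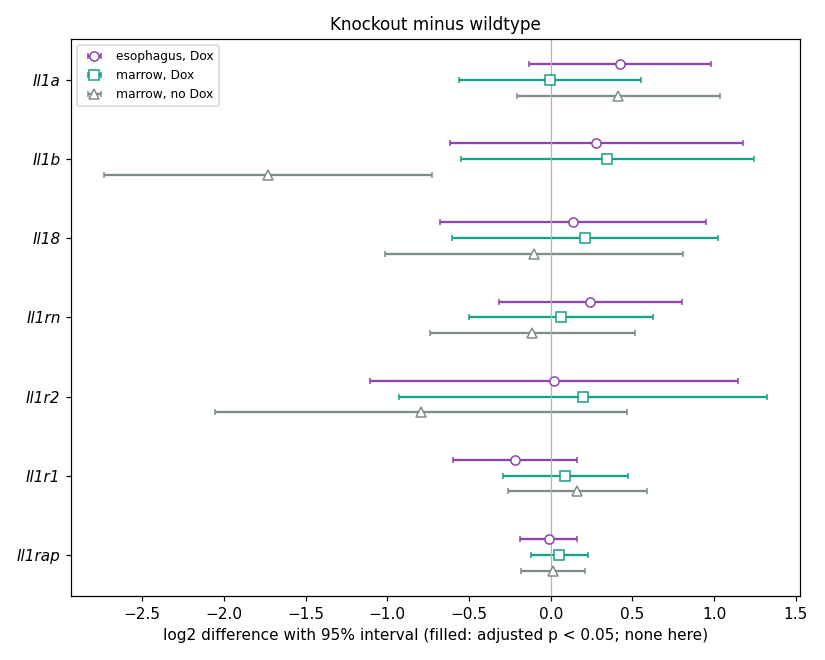
Knockout minus wildtype log2 difference (horizontal axis) with 95% intervals for each gene in esophagus with Dox, marrow with Dox and marrow without Dox. No symbol is filled because none passed, and the Il1b interval in marrow without Dox, from -2.73 to -0.73, is the only one that excludes 0.

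The genotype difference was also compared between tissues. No family gene passed the genotype by tissue interaction, with adjusted p-values from 0.962 to 0.995, beside 0.00451% of all genes. The interaction was 0.43 ± 0.36 for Il1a, 0.18 ± 0.37 for Il1rn and -0.07 ± 0.59 for Il1b, so the esophageal rise of these genes in knockout was not shown to differ from that in wildtype.

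Among the IL-1-induced targets, 1 of 18 passed in knockout against wildtype esophagus, and 2 without the array that stood apart. Tnip3, an inhibitor of NF-κB signalling, ran from 0.94 to 2.23 in knockout and -0.01 to 0.13 in wildtype, and rose by 1.5 ± 0.24 (adjusted p = 0.0239). Il6 and Tnf are given after their values were seen. Il6 ran from 3.37 to 4.54 in knockout and 0.81 to 3.74 in wildtype (difference 2.0 ± 0.57, adjusted p = 0.181), and Tnf from 1.30 to 2.92 and -0.24 to 1.10 (1.89 ± 0.40, adjusted p = 0.0708). The second was Tnf, which passed without that array (adjusted p = 0.0330), while Il6 did not (adjusted p = 0.0783). Of the 15 signalling genes, 14 had higher means in knockout, with a median of 0.54 and none passing with all arrays, beside -0.10 over all genes. Tab2 passed without that array, at 1.0 ± 0.21 (adjusted p = 0.0298). Siglecf rose by 0.95 ± 0.16 in the same comparison (adjusted p = 0.0260). Of 10 macrophage markers, 8 had lower means in knockout, none passing with all arrays. Lower means were found for 15504 of all 22180 genes, so 8 of 10 is not far from that share. Without that array C1qb, a complement subunit, and Mrc1, the mannose receptor, passed, at -0.61 ± 0.11 (adjusted p = 0.0183) and -1.07 ± 0.22 (adjusted p = 0.0262). In that fit 1 of 12 neutrophil and 1 of 6 fibroblast markers were called lower as well, beside 374 of 22180 genes. The part of these markers in the target differences was not tested.

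For each member, the genes with the smallest root mean square difference over the 17 arrays were found. Ccrl2, a chemerin-binding receptor, was nearest to Il1a at 0.476, followed by Thbs1, an adhesive matrix protein, at 0.547. Ccl6, a chemokine, and Neurl3 were nearest to Il1b at 0.778 and 0.779. Ppp1r15a, a regulator of the stress response to unfolded proteins, was nearest to Il1rn at 0.268, and Dennd4a followed at 0.351. Tmem154 and Tes were nearest to Il1r2 at 0.417 and 0.453. Spic, a transcription factor of red pulp macrophages, and Mertk, a receptor for dying cells on macrophages, were nearest to Il18 at 0.364 and 0.414. The group means of Spic were -2.04 in knockout and -1.75 in wildtype esophagus, against 1.80 and 1.56 in marrow with Dox, close to those of Il18. For Il1r1 the nearest were 1700096K18Rik and Slc6a4, at 0.0960 and 0.0979, and for Il1rap Skint8 and Scgb2b18, at 0.0508 and 0.0525. The values of Il1r1 and the probe set mean of Il1rap were nearly flat, so likeness to them picks other flat genes. On the 16 other arrays, without the one that stood apart, both nearest genes of Il1a and Il1r2 and the first of Il1rn and Il18 were the same. Those of Il1b were then Ccl3, a chemokine, at 0.772 and Antxr2 at 0.785, with Neurl3 at rank 5 and Ccl6 at rank 7. The second place passed to Klf7 for Il1rn and Lpl, a lipoprotein lipase, for Il18, with Dennd4a at rank 5 and Mertk at rank 3.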

How the data were processed

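Per the labels' protocols, RNA from sorted eosinophils (RNeasy) was amplified by Nugen Ovation One-Direct and biotin-labelled. Arrays were processed in Affymetrix Expression Console, per the submitters' processing notes, which give no version. The authors deposited log values, taken here as log2, since the log base, genome build and normalization between arrays are not given in the sources used here. In 97.08% of 33793 probe sets a middle pair of values was equal and opposite within 2e-05, which places 0 at a median of more arrays than the 17 in the table.

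Probe sets with 1 gene symbol (23521) gave 22180 genes, by the mean over probe sets. Symbols were updated through Entrez identifiers in RefSeq (GRCm38.p6), which held 23328. The 1814 probe sets with several symbols and 8458 with none were left out. One limma 3.58.1 model (R 4.3.3) with 6 group means and eBayes was fitted to 17 arrays and gave 8 contrasts, two-sided, Benjamini-Hochberg adjusted. The genotype by Dox interaction was added after the data were seen. The model was tested on simulated data. A filter on dim probes needs brightness and was not possible. No detection values were used, and the number of arrays limits the precision.

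The members, lists, tests and alternatives were chosen with earlier results of these data known. Named genes were the members, the 2 genes nearest each member, and at most the 4 smallest p-values among called genes per contrast in the pathway and eosinophil lists. For the other marker lists, called genes were mostly counted and not named. Other list genes with values (Casp1, Il1rl2, Il18r1, Ccr3, Siglecf, Il5ra, Retnlg, Il6 and Tnf), and those named for a call without 1 array, were chosen after their values were seen. Il36a, Il36b, Il36g, Il36rn, Irak4, Chuk, Nfkb1 and 3 markers were not analysed here, as no probe set used carried their symbol alone.

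The main model did not treat replicate numbers as pairs. Correlations of deviations from group means over 40 same-numbered pairs ran from -0.0999 to 0.231, with 11 above 0.1. Pairs with different numbers were not compared, so this range cannot show whether the numbers pair samples.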

Additional observations from a re-analysis of the deposited data

Results flagged for a closer look

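The estimated genotype difference of Il1b in marrow had opposite signs with and without Dox. With Dox it was 0.35 ± 0.42, with a 95% interval of -0.55 to 1.24 that holds both signs. Without Dox it was -1.73 ± 0.46. The genotype by Dox interaction was 2.08 ± 0.62, with an unadjusted p of 0.00534 and an adjusted p of 0.663 in limma over all genes, so the difference did not pass the test. Without replicate 3 of knockout marrow without Dox, the interaction was 1.59 ± 0.52 (adjusted p = 0.9998). The group without Dox in wildtype holds 2 arrays. The same arrays enter this interaction, the genotype difference without Dox and the wildtype Dox difference.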

How the results depend on the processing

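The 26 alternatives were 9 other settings and 17 fits without 1 array each. The 5 esophagus minus marrow calls of each genotype kept their direction and passed in all 26, as did the absence of a family call in the 3 knockout minus wildtype contrasts and the genotype by tissue interaction. The Dox contrasts in marrow depended on the setting. Quantile normalization and array weights each called 1 family gene in knockout, Il18 at 2.03 and 1.37, and 2 in wildtype, Il1b at -4.28 and -2.38 and Il18 at 2.26 and 1.64. Leaving out 1 array gave 0 to 1 call in knockout and 0 to 2 in wildtype, the 2 without replicate 3 of knockout marrow without Dox and the knockout call without replicate 1 or 2 of that group. The cause was not tested. With the replicate number as a fixed replicate block or a random one (consensus correlation 0.0876), no family call changed, and the esophageal knockout minus wildtype calls over all genes were 47 and 82, against 77.

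All 61 sign changes were of differences that had not passed. For knockout minus wildtype in the esophagus, quantile normalization gave -0.0754 for Il1rn, -0.25 for Il1r2, 0.0464 for Il1rap and -0.20 for Il18, and the Y-linked covariate gave -0.39 for Il1b, 0.0756 for Il1r1, -0.75 for Il1r2, 0.0128 for Il1rap and -0.25 for Il18. Il1rap was 0.0709 with arrays centred on their medians and 0.28 with its lowest-numbered probe set. In marrow with Dox, Il1a was 0.0159 with median centring. In marrow without Dox, Il1rap was -0.0598 with quantile normalization, -0.0628 with median centring, -0.0073 with array weights and -0.0765 with its lowest-numbered probe set, and Il18 was 0.48 with quantile normalization, 0.50 with array weights and 0.0223 with the Y-linked covariate. For Dox in knockout marrow, Il1r2 was -0.60 with quantile normalization and -0.34 with the Y-linked covariate, and Il1rap was 0.0052 with median centring. For tissue in knockout, Il1r1 was -0.0409 with median centring and -5.79e-05 with array weights. The genotype by tissue interaction was 0.0385 for Il1b and -0.14 for Il1rn with quantile normalization, 0.0403 for Il1b with array weights and 0.20 for Il1rap with its lowest-numbered probe set.

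Leaving out 1 array moved the esophageal knockout minus wildtype difference over -0.17 to 0.40 for Il1r2, -0.12 to 0.46 for Il1rn, -0.0391 to 0.0255 for Il1rap and -0.0066 to 0.25 for Il18. In marrow with Dox it ran over -0.30 to 0.18 for Il1a, -0.11 to 0.23 for Il1rn, -0.0605 to 0.41 for Il1r2, -0.0732 to 0.63 for Il1b and -0.0158 to 0.22 for Il1r1, and without Dox over -0.10 to 0.14 for Il1rap, -0.45 to 0.51 for Il18 and -0.0169 to 0.33 for Il1r1. The Dox difference ran over -0.92 to 0.0512 for Il1b, 1.36 to 2.29 for Il18 and -0.49 to 0.84 for Il1r2 in knockout, and -2.80 to -2.10 for Il1b and 1.31 to 2.0 for Il18 in wildtype. The tissue difference of Il1r1 in knockout ran over -0.13 to 0.11, and the interaction over -0.39 to 0.20 for Il1r2, -0.36 to 0.35 for Il1b, -0.22 to 0.0381 for Il18 and -0.18 to 0.40 for Il1rn.

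Called IL-1-induced targets stayed within 13 to 17 of 18 in knockout and 10 to 15 in wildtype. Counts over all genes moved more. The esophageal knockout minus wildtype count was 6 with quantile normalization, 8 with the compared arrays alone, 858 with array weights, 7 with the Y-linked covariate and 22 to 763 without 1 array. The tissue count was 2336 in knockout, against 4451 with the compared arrays alone, 6117 with array weights and 1538 to 4175 without 1 array. In wildtype it was 3366, against 2176 with quantile normalization, 8210 with array weights, 1629 with the Y-linked covariate and 1335 to 8092 without 1 array. The Dox counts were 5 in each genotype, against 241 in knockout and 119 in wildtype with quantile normalization, 3331 and 55 with array weights, 0 and 0 with the compared arrays alone, and 0 to 346 and 0 to 33 without 1 array. Median centring moved the median tissue difference of all genes in wildtype to 0.03, against 0.14. The counts of knockout against wildtype marrow reached 6 with Dox (array weights) and 27 without Dox (quantile normalization).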

Other observations

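The marrow differences of Il1b, Il18 and Il1r2 were also ranked among all genes. With Dox against no Dox, Il18 ranked 15 from the highest of 22180 genes in knockout and 10 in wildtype, while Il1r2 ranked 64 from the lowest in wildtype. In knockout against wildtype marrow without Dox, Il1b ranked 22 from the lowest. These ranks come from comparisons in which the family passed no test with all arrays.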
